A study of Mus musculus with 21 samples.

Results

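The 37 genes described here are interferon-stimulated genes, a set of symbols grouped by the role of their products. They were chosen with earlier results of these data known. All 37 of 37 were among the 23238 gene symbols in the files, and all 37 passed the filter on low counts, which left 14727 genes for testing. They were measured in the lungs of 21 C57BL/6 mice, 3 animals in each of 7 groups, with 1 QuantSeq 3′ library per animal, a method that reads the 3′ end of polyadenylated RNA. Each mouse received 50 µL of its agent into the trachea once a day for 14 days and was killed on day 15, and RNA was taken from the lung tissue left after the bronchoalveolar lavage. The groups were saline, propylene glycol (PG) at 826, PG at 1100, 10% ethanol, and vitamin E acetate (VEA) at 3.12, 6.25 and 12.5. Doses stand here as numbers only, because their unit is mg/kg in the labels and mg/mL in the series description. The labels name saline as the control for PG and 10% ethanol as the control for VEA. The liquid in which VEA was instilled, and the age and sex of the mice, were not given in the sources used here. PG is a solvent of vaping liquids, and VEA is an oily ester of vitamin E that has been used as a thinner in some of them. Animals are named by the numbers in the labels.

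Total counts per library were 8778028 to 11783151, so a count of 3 stood for 0.231 to 0.365 CPM (counts per 1e6 counts, scaled by the TMM factor of each library). Libraries of 1 group differed by a chi-square per degree of freedom of 8.14 to 40.48, where counting error alone gives about 1. All 10 markers of alveolar and airway epithelium had counts in each group, and their summed level was 51587 to 99738 CPM, which fits the labelled tissue. Of the 37 genes, 3 (Oas2, Oas3 and Mx2) had a mean below 5 CPM in each of the 7 groups, and for these the counts limit the precision.

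Interferons are secreted proteins that cells release when they sense viral or other nucleic acids. Type I interferons signal through the Ifnar1 and Ifnar2 receptor to a complex that includes STAT2 and IRF9 and binds the interferon-stimulated response element (ISRE) in the promoters of its target genes. Interferon gamma signals through Ifngr1 and Ifngr2 to another DNA element, the gamma-activated site (GAS). The targets include nucleic acid sensors, transcription factors that amplify the response, proteins that block viral RNA or budding, GTPases that act on vacuoles of intracellular microbes, and chemokines that attract T cells. In the lung they are known as the early response to respiratory viruses, in epithelium as well as in macrophages.

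The 5 stretches of promoter that follow belong to genes whose RNA rose after VEA 12.5, and they are shown because each holds an ISRE-type motif in its last 250 bases before the RefSeq start of the gene. Each is 60 bases, written 5′ to 3′ on the strand of the gene (RefSeq, GRCm38.p6), and capitals mark the matches to GAAANNGAAA or to its reverse complement TTTCNNTTTC.
Isg15: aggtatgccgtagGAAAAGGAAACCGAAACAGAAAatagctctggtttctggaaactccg
Ifit1: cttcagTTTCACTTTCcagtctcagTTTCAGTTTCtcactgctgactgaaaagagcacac
Oas1a: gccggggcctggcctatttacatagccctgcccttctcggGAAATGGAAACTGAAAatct
Oas3: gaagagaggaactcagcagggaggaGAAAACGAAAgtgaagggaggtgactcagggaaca
Bst2: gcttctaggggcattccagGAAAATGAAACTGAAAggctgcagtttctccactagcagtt

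The stretch of Isg15 lies at chr4:156200850-156200909 on the minus strand and holds overlapping matches in a row. That of Ifit1 is at chr19:34640779-34640838 on the plus strand and holds a pair of separate matches. The stretches of Oas1a (chr5:120907526-120907585), Oas3 (chr5:120777700-120777759) and Bst2 (chr8:71537562-71537621) are on the minus strand. Of the 37 genes, 28 had a window in the promoter table. The ISRE-type motif, searched on both strands, was found in 15 of these 28, whereas 3.46% of the 27025 genes in the table held it. The GAS-type motif TTCNNNGAA, which reads the same on both strands, was found in 5 of 28, and 8.13% of all genes held it. Among the genes called higher after VEA 12.5, 6 of 14 with a window held the ISRE-type motif (Isg15, Ifit1, Oas1a, Oas3, Bst2 and Trim30a), against 9 of 14 among those not called. A match is a description of the letters and does not show binding.

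Differences between groups were tested with edgeR's quasi-likelihood test, and a gene was called where the Benjamini-Hochberg adjusted p over all 14727 genes was below 0.05. VEA at 12.5 gave the most calls: 16 of the 37 genes were called higher than in the ethanol lungs and 0 lower, while 5.48% of all genes were called higher and 4.23% lower. PG at 1100 gave 2 called higher than in saline lungs (Oas3 and Lgals3bp) and 2 lower (Irf1 and Gbp2), against 4.09% and 3.23% of all genes. VEA at 3.12 gave 0 called higher and 0 lower (3.42% and 2.09% of all genes), and VEA at 6.25 gave 0 higher and 1 lower, Irf1 (3.51% and 2.25%). PG at 826 gave 0 called higher and 0 lower (0.0951% and 0.0407% of all genes), and 10% ethanol against saline gave 0 in each direction (0% of all genes). The median log2 fold change of the 37 genes was 0.99 after VEA 12.5, where that of all genes was -0.01, and it was 0.34 after VEA 3.12, -0.03 after VEA 6.25, 0.23 after PG 1100 and -0.14 after PG 826. After VEA 12.5 the fold change was positive for 36 of the 37 genes and for 48.7% of all genes. In 15 of the 37 the 3 treated lungs were all above the 3 ethanol lungs, against 15.3% of all genes. VEA 12.5 had the highest group mean of the 7 groups in 34 of the 37 genes, a measure that was not taken over all genes. Because the list was chosen with earlier results of these data known, these counts describe it and are not an independent test.

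**Figure D1:**
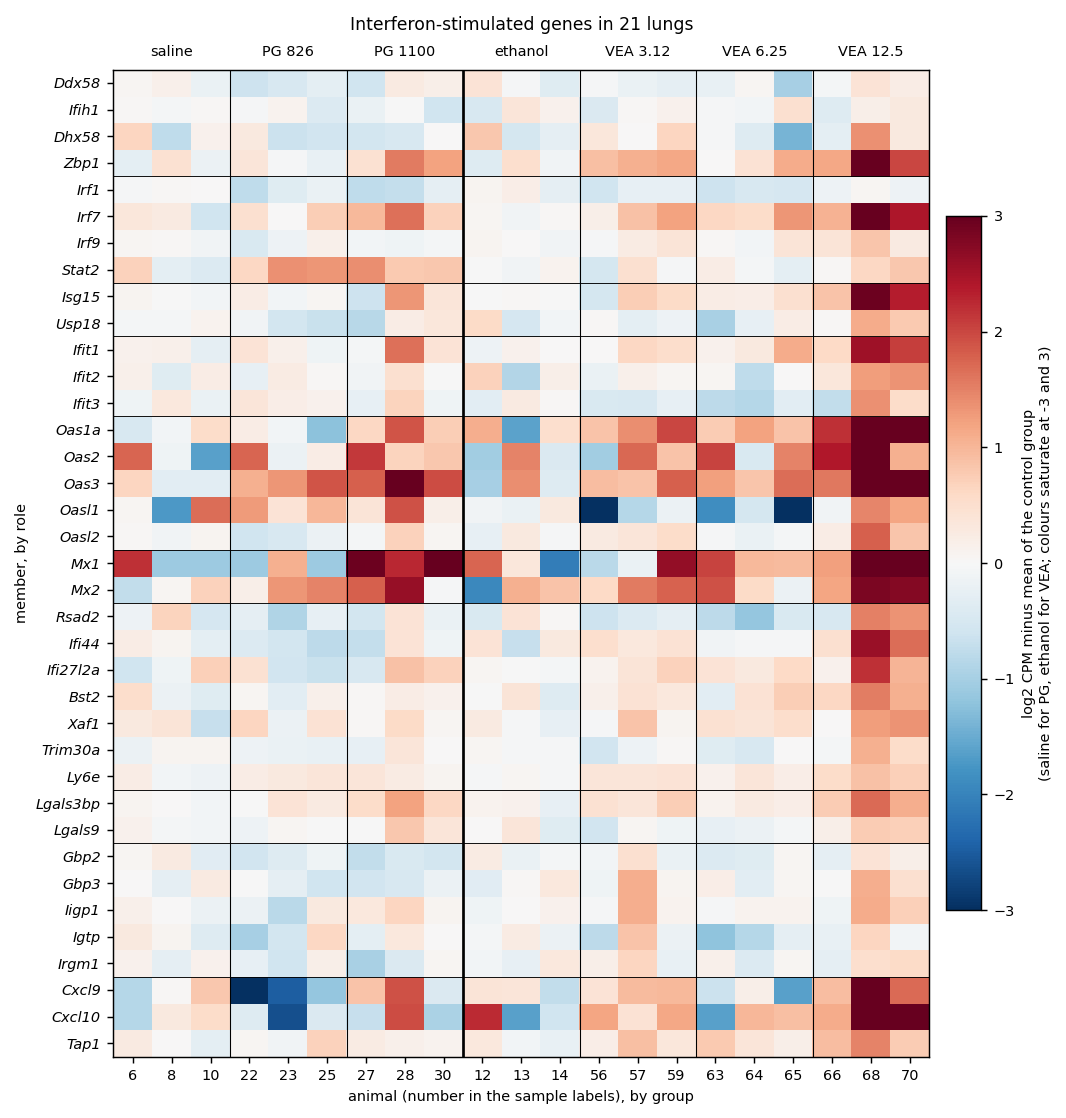
Each row is 1 of the 37 interferon-stimulated genes, sorted by role, and each column 1 of the 21 animals, sorted by group. Colour gives log2 CPM minus the mean of the control group (saline for PG, ethanol for VEA), and the VEA 12.5 columns of animals 68 and 70 are the reddest while that of animal 66 is paler.

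Among the sensors of nucleic acids, Zbp1 was the gene that rose after VEA 12.5, 1 of 4. Zbp1 (chr2:173206612-173218923) encodes a receptor for left-handed nucleic acid that can start cell death. Its level was 3.51, 6.70 and 4.32 CPM in the 3 ethanol lungs (animals 12, 13 and 14) and 10.6, 39.0 and 19.4 CPM after VEA 12.5 (animals 66, 68 and 70). The groups did not overlap, and the log2 fold change was 2.25 ± 0.38 (SE, n = 3 animals against 3, adjusted p = 9.46e-05, edgeR). Each SE of a fold change comes from the fit to all 21 libraries, whose spread is shared between the groups. The cytosolic RNA helicases were not called. Ddx58, which encodes RIG-I, had a mean of 41.5 ± 6.78 CPM (SD, n = 3) after VEA 12.5 and 36.9 ± 9.96 CPM in ethanol lungs. Ifih1, which encodes MDA5, changed by 0.01 ± 0.24 on the log2 scale, with a 95% interval of -0.51 to 0.53 and an adjusted p of 0.991. Dhx58, the gene of the third helicase of this family, had the largest value in animal 68, at 8.61 CPM, and 2.55 and 3.95 CPM in animals 66 and 70, which overlapped the ethanol values of 2.16 to 5.71 CPM.

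Of the 4 transcription factors, Irf7 and Irf9 rose. Irf7 (chr7:141262706-141266481), the regulator that drives the later wave of interferon alpha genes, was at 4.28, 3.78 and 4.21 CPM in ethanol lungs and at 8.56, 59.9 and 22.8 CPM after VEA 12.5. All 3 treated animals lay above all 3 controls, but animal 68 was far above animal 66, and the log2 fold change was 2.89 ± 0.50 (adjusted p = 0.00046). Irf9 (chr14:55603571-55610030), the DNA-binding subunit of the complex that binds the ISRE, was at 55.5, 53.6 and 49.3 CPM in ethanol lungs and at 69.4, 93.4 and 63.9 CPM after VEA 12.5. It had the smallest called change, 0.52 ± 0.16 (adjusted p = 0.0349), with no overlap between the groups. Stat2, its partner, was at 9.83 to 11.4 CPM in ethanol lungs and at 10.9, 16.4 and 18.7 CPM after VEA 12.5 and was not called (adjusted p = 0.322). Irf1 was not called after VEA 12.5 (-0.10 ± 0.15, adjusted p = 0.777) and was called lower after PG 1100 and VEA 6.25.

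Isg15 (chr4:156199424-156200818) encodes a ubiquitin-like protein that is attached to viral and host proteins. Its level was nearly the same in the 3 ethanol lungs, 20.1, 20.6 and 19.96 CPM, and after VEA 12.5 it was 36.8, 156 and 104 CPM. All 3 VEA 12.5 animals were above all 9 animals of the saline, ethanol and PG 826 groups, and the log2 fold change against ethanol was 2.29 ± 0.49 (adjusted p = 0.00777). Usp18, the protease that removes ISG15 and damps the receptor, was at 12.5, 26.6 and 21.4 CPM after VEA 12.5 and at 18.2, 8.64 and 11.7 CPM in ethanol lungs. The groups overlapped and it was not called (adjusted p = 0.208).

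The IFIT family includes IFIT1, which binds viral RNA that lacks the host's cap methylation. Ifit1 (chr19:34640871-34650009) was the 1 of 3 that rose: it was at 19.6, 24.1 and 22.0 CPM in ethanol lungs and at 33.1, 129 and 92.0 CPM after VEA 12.5, a log2 fold change of 1.95 ± 0.47 (adjusted p = 0.0164) with no overlap. Ifit2 had a fold change of 0.92 ± 0.32 (adjusted p = 0.0589), and its animal 66, at 11.0 CPM, lay within the ethanol range of 4.64 to 14.3 CPM. Ifit3 was at 50.5, 216 and 122 CPM after VEA 12.5, so animal 66 was below all 3 ethanol lungs (67.4, 102 and 85.8 CPM) and animals 68 and 70 above them, and it was not called (adjusted p = 0.397).

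The OAS enzymes make short oligoadenylates that activate RNase L, an enzyme that cuts RNA, and 3 of the 5 genes of this family rose. Oas1a (chr5:120896256-120907521) was at 3.18, 0.324 and 2.05 CPM in ethanol lungs and at 7.10, 16.2 and 12.7 CPM after VEA 12.5, a log2 fold change of 2.69 ± 0.53 (adjusted p = 0.000614). Oas3 (chr5:120753098-120777661) was at 0.00, 0.864 and 0.108 CPM in ethanol lungs and at 1.00, 6.26 and 4.80 CPM after VEA 12.5, 3.58 ± 1.05 on the log2 scale (adjusted p = 0.0222). Oasl2 (chr5:114896936-114912234), an OAS-like gene, was at 9.77, 14.3 and 11.4 CPM in ethanol lungs and at 13.6, 40.7 and 20.95 CPM after VEA 12.5, 1.08 ± 0.28 (adjusted p = 0.00837). For Oas1a and Oas3 all treated animals were above all controls, whereas for Oasl2 animal 66 fell below ethanol animal 13. Oas2 (adjusted p = 0.243) and Oasl1 (adjusted p = 0.570) were not called, and the highest value of Oas2 in the 21 lungs was 3.41 CPM.

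The Mx genes belong to the family of dynamin-like GTPases, and neither gene was called. Mx2 (chr16:97535308-97560900) was at 0.00, 1.40 and 1.19 CPM in ethanol lungs and at 1.54, 5.20 and 4.96 CPM after VEA 12.5, without overlap, and the log2 fold change was 2.16 ± 0.88 (adjusted p = 0.123). Mx1 was at 2.63, 0.864 and 0.00 CPM in ethanol lungs and at 1.77, 17.8 and 10.9 CPM after VEA 12.5, with a fold change of 3.11 ± 1.36 (adjusted p = 0.189). The Mx fold changes were among the larger ones, but so were their errors, and animal 66 lay within the ethanol range of Mx1.

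Of the 7 other antiviral effectors, 5 rose. Ly6e (chr15:74955051-74959905), a surface protein that blocks fusion of coronaviruses with the cell, was at 544, 588 and 549 CPM in ethanol lungs and at 818, 1029.9 and 916 CPM after VEA 12.5. Its change was small but even between animals, 0.72 ± 0.13 (adjusted p = 0.000169). Ifi44 (chr3:151730922-151749960) went from 16.2, 7.45 and 15.0 CPM to 17.2, 74.3 and 39.5 CPM, 1.76 ± 0.37 on the log2 scale (adjusted p = 0.00306), and animal 66 was only just above the highest control. Bst2 (chr8:71534255-71537456), which encodes tetherin, a protein that holds budding virions on the cell, was at 19.0, 25.2 and 14.5 CPM in ethanol lungs and at 29.2, 55.5 and 40.1 CPM after VEA 12.5, 1.09 ± 0.25 (adjusted p = 0.00374). Trim30a (chr7:104409025-104465193), a member of the tripartite motif family, was at 58.2, 54.4 and 54.7 CPM in ethanol lungs and at 53.8, 118 and 82.0 CPM after VEA 12.5, 0.60 ± 0.20 (adjusted p = 0.0462). Here animal 66 was below all 3 ethanol lungs, so the call rested on animals 68 and 70. The fifth, Xaf1, was chosen for mention after its values were seen: its change was 0.99 ± 0.33 with an adjusted p of 0.0495, just under the threshold, and its groups overlapped. Rsad2, which encodes viperin, was at 24.8, 99.3 and 89.3 CPM after VEA 12.5 and at 25.4, 46.5 and 35.4 CPM in ethanol lungs and was not called (adjusted p = 0.192). Ifi27l2a was at 76.8, 322 and 142 CPM after VEA 12.5, all above the ethanol lungs (67.8 to 72.9 CPM), and it also missed the threshold (adjusted p = 0.104).

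Lgals3bp (chr11:118392751-118402092), a secreted glycoprotein that binds galectins, had the smallest adjusted p of the 37 genes. It was at 47.4, 48.5 and 37.4 CPM in ethanol lungs and at 75.4, 144 and 94.3 CPM after VEA 12.5, a log2 fold change of 1.24 ± 0.19 (adjusted p = 1.8e-05). All 3 treated lungs were above each lung of the saline, ethanol, PG 826, VEA 3.12 and VEA 6.25 groups. Lgals9, which encodes a galectin that binds the T cell receptor TIM-3, changed by 0.54 ± 0.19 (adjusted p = 0.0592) and was not called.

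Of the 3 genes of chemokines and antigen transport, 2 rose. Tap1 (chr17:34187553-34197225), a subunit of the pump that loads peptides onto MHC class I, was at 21.2, 15.9 and 14.5 CPM in ethanol lungs and at 32.3, 48.0 and 28.9 CPM after VEA 12.5, 1.08 ± 0.24 (adjusted p = 0.00199). Cxcl9 (chr5:92321347-92328079), a ligand of the T cell chemokine receptor CXCR3, was at 3.51, 3.46 and 1.51 CPM in ethanol lungs and at 5.25, 24.5 and 9.09 CPM after VEA 12.5, 2.19 ± 0.62 (adjusted p = 0.0195). Cxcl10, another CXCR3 ligand, was at 2.74, 0.00 and 0.216 CPM in ethanol lungs and at 1.16, 22.9 and 18.3 CPM after VEA 12.5. Its fold change of 3.83 ± 1.32 was the largest of the 37 genes, but animal 66 was below ethanol animal 12, and the adjusted p was 0.0848.

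None of the 5 guanylate-binding and immunity-related GTPases was called after VEA 12.5. Gbp2 (chr3:142620602-142638008) was at 53.3, 39.2 and 42.9 CPM in ethanol lungs and at 37.3, 59.6 and 50.3 CPM after VEA 12.5, 0.12 ± 0.19 (adjusted p = 0.781, 95% interval -0.29 to 0.53). Iigp1 was at 64.3, 70.4 and 76.2 CPM in ethanol lungs and at 63.8, 153 and 115 CPM after VEA 12.5, 0.65 ± 0.33 (adjusted p = 0.268). Gbp3, Igtp and Irgm1 had fold changes of 0.57, 0.16 and 0.30 with overlapping groups. The median fold change of these 5 genes was 0.30, and that of the OAS family 2.45. Whether the families differ was not tested.

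**Figure D2:**
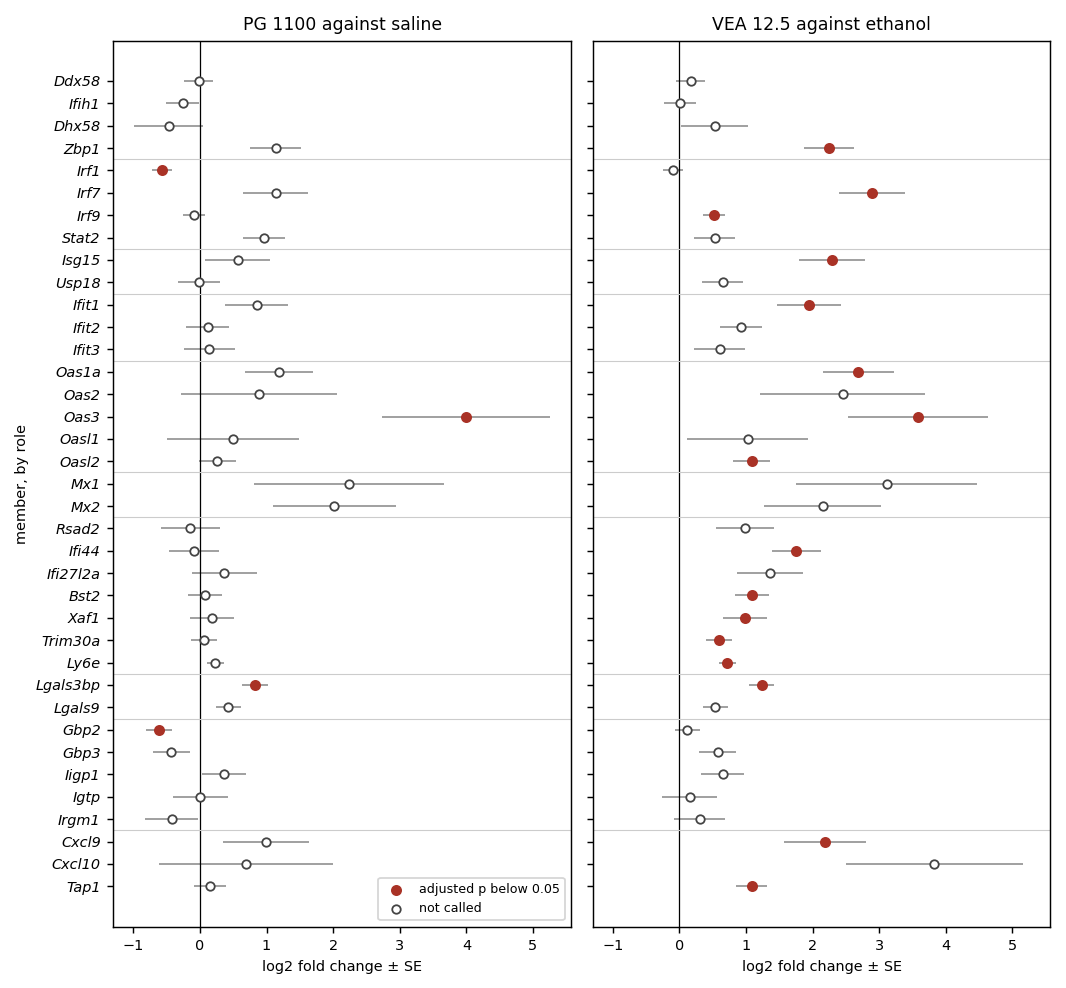
Log2 fold change with its SE for the 37 genes, sorted by role, after PG 1100 against saline (left) and VEA 12.5 against ethanol (right), n = 3 animals per group. Filled red points have an adjusted p below 0.05, which holds for 4 genes on the left and 16 on the right.

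**Figure D3:**
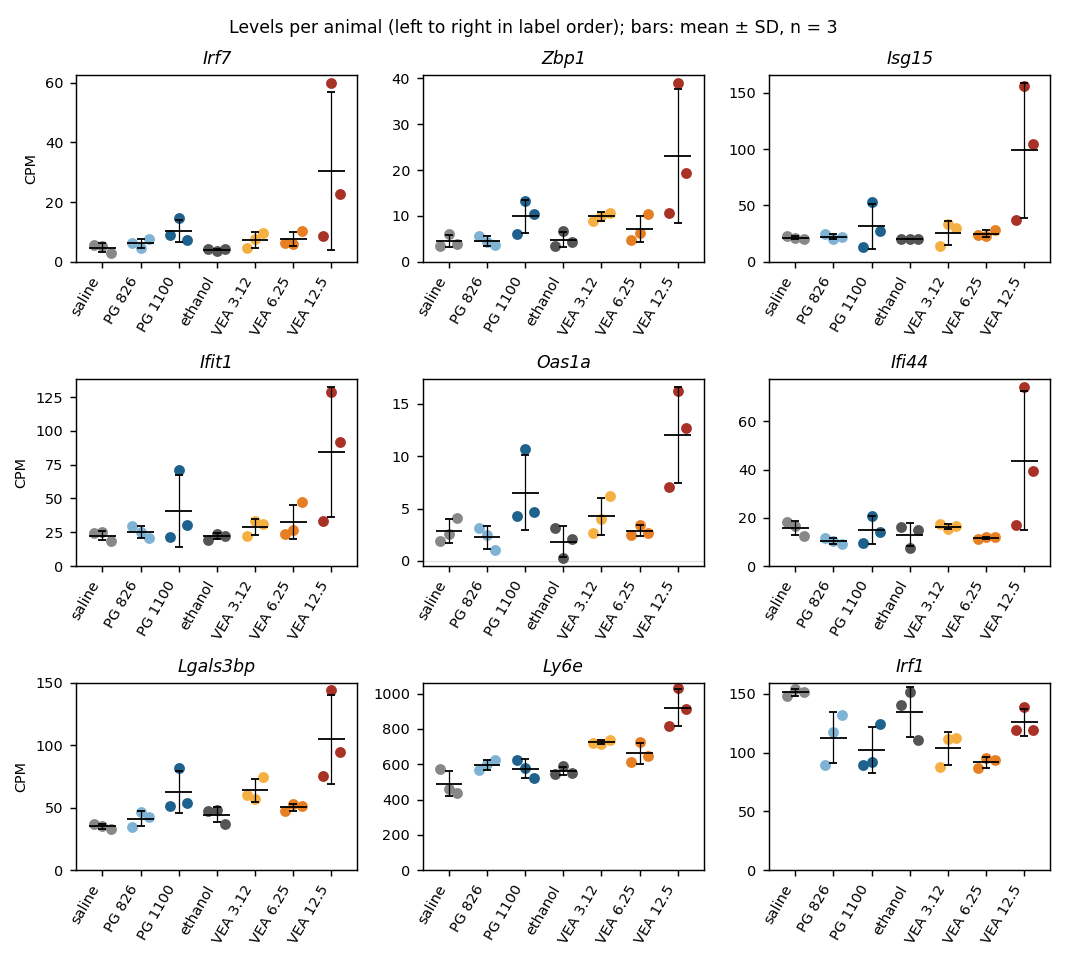
Level in CPM of 9 genes in each of the 21 animals, with the mean and SD of each group of 3. In the VEA 12.5 group, Irf7, Isg15 and Ifi44 are spread widely between animals while Ly6e is not, and Irf1 is highest in the saline lungs.

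The VEA 12.5 group was spread more widely in these genes than in the rest. Its median range between the 3 animals was 1.26 on the log2 scale for the 37 genes and 0.41 for all genes, and 24 of the 37 genes had a range above 1, against 16.7% of all genes. In the other groups the median range of the 37 genes was 0.57 to 0.85. The animals described next were singled out after their values were seen. Animal 68 was the highest of its group in 32 of the 37 genes and the highest of all 21 lungs in 26. Animal 66 was the lowest of the group in 33, and only 16 of its 37 values were above the highest ethanol lung, where animal 68 had 35 and animal 70 had 30. For all genes these shares were 28.5%, 30.1% and 29.9%, so the 3 animals were alike in that measure outside the interferon-stimulated set. How often an animal was the highest or the lowest was not counted over all genes.

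Averaged over the role lists, animal 66 stood 0.07 above the ethanol mean on the log2 scale for the IFIT family, 0.10 for the sensors and 0.18 below it for the GTPases. It stood 1.26 above for the OAS family, and genes within a list differed in this animal. Relative to the ethanol mean, its Ifit1 was at 0.60 and its Ifit3 at -0.73, while its Oas1a was at 2.20 and its Oasl1 at -0.10. Whether the families differ in animal 66 was not tested. Animal 68 stood 1.72 above the ethanol mean for the IFIT family and 2.74 for the OAS family, and animal 70 stood 1.32 and 1.95 above. Over the GTPases animals 68 and 70 were 0.76 and 0.37 above. The OAS family includes genes of few counts, whose averages carry more counting error.

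**Figure D4:**
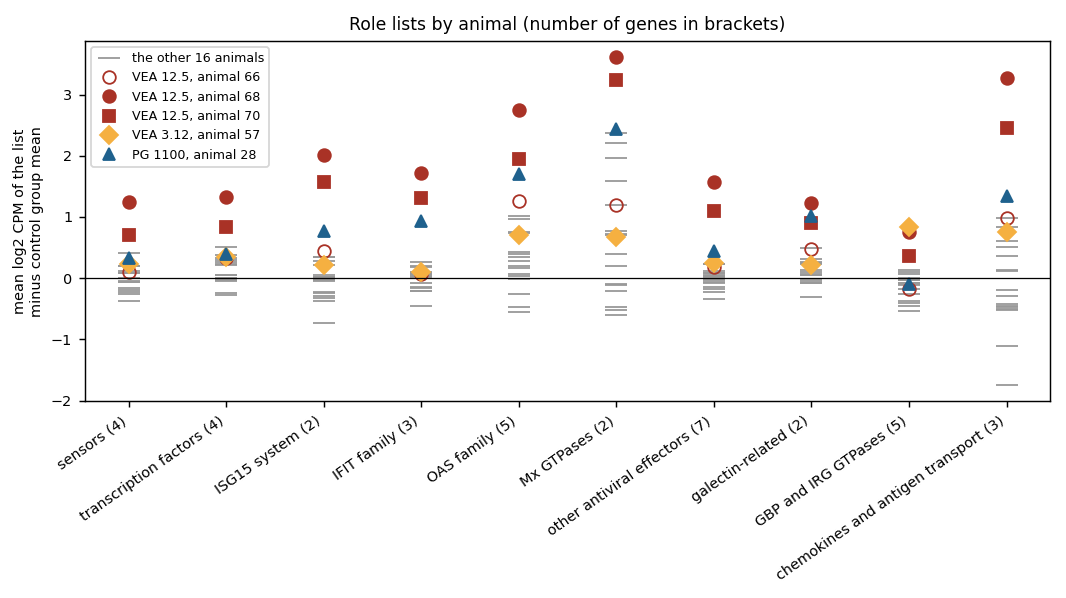
Mean log2 CPM of each role list minus the mean of the control group, per animal, with the 3 animals of VEA 12.5 in red, animal 57 of VEA 3.12 in orange, animal 28 of PG 1100 in blue and the other 16 animals as grey dashes. Animal 68 is the highest in 9 of the 10 lists and animal 57 is the highest for the GTPases.

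Of the marker lists of immune cells, that of recruited monocytes and macrophages had the most calls after VEA 12.5. Of 10 markers of recruited monocytes and macrophages, 7 were higher after VEA 12.5 than in ethanol lungs (5.48% of all genes). Among them were C1qa, Ms4a7 and Ccr2. Other markers of the list did not follow. Plac8 had a lower mean after VEA 12.5, 96.6 CPM against 112 CPM in ethanol lungs. Ly6c2, at 37.5, 89.9 and 46.9 CPM, overlapped the ethanol values of 39.3 to 47.1 CPM. The summed level of the 10 markers was 288 to 418 CPM in ethanol lungs and 562, 849 and 677 CPM in animals 66, 68 and 70. This was the same order as for most interferon-stimulated genes. The sums of T and NK cells and of B and plasma cells had this order too, the latter at 67.1, 101 and 98.8 CPM. Of 9 markers of T and NK cells tested, 0 were called, and their sum was 38.0, 67.5 and 50.9 CPM in animals 66, 68 and 70 against 40.7 to 47.6 CPM in ethanol lungs. None of 6 tested markers of plasmacytoid dendritic cells, cells known for making much interferon alpha, was called. The summed level of this list was 425 to 453 CPM after VEA 12.5 and 517 to 566 CPM in ethanol lungs. Most of it was Tcf4, at 330 to 354 CPM after VEA 12.5 and 411 to 463 CPM in ethanol lungs, so the sum mainly follows this 1 gene. Within that list, Siglech was at 1.23, 1.71 and 3.37 CPM after VEA 12.5 against 3.56 to 4.96 CPM in ethanol lungs. Spib went the other way, at 5.71, 6.82 and 5.97 CPM against 1.87, 2.48 and 3.67 CPM. For neutrophils 0 of 7 tested were called, and for alveolar macrophages 3 of 9 were higher and 1 lower. For B and plasma cells 1 of 6 (Jchain) was higher, and for endothelium 4 of 6 were lower. Of all genes, 5.48% were called higher and 4.23% lower. The neutrophil gene Ngp was the only marker of these lists with no count in the VEA 12.5 group, and the part of these cells in the result was not tested. In RNA of whole tissue, more cells of a type and more RNA per cell cannot be told apart.

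Most of the recruited monocyte and macrophage markers also rose at the lower VEA doses, where the interferon-stimulated genes were not called higher. There, 6 of the 10 were higher at each dose (3.42% of all genes at 3.12 and 3.51% at 6.25). Ly6c2 had means of 41.8 CPM at 3.12 and 44.1 CPM at 6.25, against 43.9 CPM in ethanol lungs. For Plac8 the means were 86.8 and 99.2 CPM against 112 CPM. The sums were 450 to 607 CPM after VEA 3.12 and 512 to 602 CPM after VEA 6.25. Animal 66, with 562 CPM, lay inside these ranges, and animals 68 and 70 above them. The part of these cells in the levels of the interferon-stimulated genes was not tested.

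After VEA 3.12 the genes were mixed between animals. In edgeR, 6 of the 37 had an unadjusted p below 0.05 (18.96% of all genes), and DESeq2 called 1 and limma-voom 0. Zbp1 was at 8.94, 10.0 and 10.7 CPM in animals 56, 57 and 59, all above the ethanol lungs, a fold change of 1.03 ± 0.38 (adjusted p = 0.115). Ly6e, at 723, 716 and 739.5 CPM, was likewise above all controls (0.37 ± 0.13, adjusted p = 0.0792). In all, 6 genes were higher without overlap, against 12.9% of all genes. Animal 57 had the highest Gbp3, Igtp and Iigp1 of its group, at 37.2, 37.3 and 149.5 CPM, where the other 2 animals had at most 18.2, 18.1 and 75.0 CPM. Its GTPase list stood 0.84 above the ethanol mean and its IFIT list 0.10. Its T and NK cell sum, 59.1 CPM, was the second highest of the 21 lungs, and its part in these values was not tested.

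VEA 6.25 left most of the genes near the ethanol level. In edgeR 1 of the 37 had an unadjusted p below 0.05 (18.7% of all genes), and DESeq2 and limma-voom each called 1 as well. It was Irf1 (chr11:53770014-53778374), which was at 140.5, 152 and 111 CPM in ethanol lungs and at 86.6, 95.0 and 94.1 CPM after VEA 6.25, -0.55 ± 0.15 on the log2 scale (adjusted p = 0.0228). All 3 treated lungs were below all controls. Isg15 was at 23.6, 23.1 and 28.4 CPM and Irf7 at 6.37, 6.07 and 10.5 CPM, in each animal above the ethanol lungs but far below animals 68 and 70. The call of Irf1 was lost without ethanol animal 12 (adjusted p = 0.0844) or 13 (0.141), and without VEA 6.25 animal 63 (0.0758), 64 (0.0656) or 65 (0.0632).

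The medians of the VEA groups did not follow the order of the dose numbers: the median fold change against ethanol was 0.34, -0.03 and 0.99 at 3.12, 6.25 and 12.5. These 3 comparisons share the ethanol lungs. VEA 12.5 was also set directly against VEA 3.12, which needs no control. There 0 of the 37 genes were called (0% of all genes), although all 37 had a positive fold change, with a median of 0.82 beside 0.00 for all genes. In edgeR 21 of the 37 had an unadjusted p below 0.05 (5.44% of all genes), and DESeq2 called 1 and limma-voom 0. Without overlap, 9 genes were higher, against 7.2% of all genes. Isg15 had a difference of 1.93 with a 95% interval of 0.89 to 2.97 (adjusted p = 0.612), and Irf7 one of 2.05 with an interval of 1.04 to 3.07 (adjusted p = 0.416). Without animal 66, 7 genes were called in this comparison. The share of all genes called in that setting is not given here, so the 7 cannot be read as particular to these genes.

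In the PG 1100 lungs, Lgals3bp was at 51.2, 81.7 and 54.1 CPM in animals 27, 28 and 30, against 37.1, 35.4 and 33.0 CPM in the saline lungs (animals 6, 8 and 10). It rose by 0.83 ± 0.19 on the log2 scale (adjusted p = 0.00427) with no overlap. Oas3 was at 0.197, 0.00 and 0.00 CPM in saline lungs and at 0.676, 2.44 and 0.779 CPM after PG 1100. This was 2 counts in the saline group and 36 after PG 1100, a ratio of 18.2 with a 95% counting interval of 4.68 to 155.8 (adjusted p = 0.0441 in edgeR). That interval covers counting error only and not the spread between animals. Animal 28 held 22 of the 36 counts, and saline animal 6 held the 2. Irf1 fell, from 148, 154 and 151 CPM to 89.7, 92.1 and 125 CPM, -0.57 ± 0.15 (adjusted p = 0.0138). Gbp2 also fell, from 56.6, 65.3 and 43.0 CPM to 32.2, 39.2 and 36.6 CPM, -0.61 ± 0.19 (adjusted p = 0.046). For both genes all treated lungs were below all controls. Zbp1, at 6.09, 13.3 and 10.4 CPM after PG 1100 and 3.55, 6.09 and 3.89 CPM in saline lungs, had a fold change of 1.14 ± 0.38 (adjusted p = 0.0635) and was not called. In all, 6 of the 37 genes were higher after PG 1100 without overlap, against 10.1% of all genes.

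Animal 28 stood apart in the PG 1100 group. It had 26 of its 37 values above the highest saline lung, where animals 27 and 30 had 11 and 12, while the shares of all genes were 29.3%, 27.8% and 26.3%. Its Isg15 was 53.4 CPM, against 13.6 and 27.4 CPM in animals 27 and 30, its Ifit1 70.9 CPM against 21.4 and 30.1, and its Irf7 14.6 CPM against 8.99 and 7.46. Its sum of recruited monocyte and macrophage markers, 569 CPM, was also the highest of the group (434 to 569 CPM, saline 259 to 285 CPM). Of these 10 markers, 5 were called higher after PG 1100 (4.09% of all genes). Their part was not tested. Without animal 28, none of the 37 genes was called: the adjusted p was 0.0937 for Lgals3bp, 0.251 for Oas3, 0.0965 for Irf1 and 0.0839 for Gbp2. Of the 4 calls, Lgals3bp was lost only in that setting of 13, Irf1 also without animal 27 and with only the groups compared in the model, Oas3 also without saline animal 8 or 10, and Gbp2 also without saline animal 6 or 8 or PG animal 27 or 30. The calls of Oas3 and Gbp2 were lost too with limma-voom and without the 3 libraries in which the fewest genes were detected (saline 8, ethanol 13 and VEA 6.25 animal 65), and that of Gbp2 with only the groups compared.

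Neither PG 826 nor ethanol gave a call against saline. For PG 826, 5 of the 37 had an unadjusted p below 0.05 in edgeR (9.47% of all genes), and DESeq2 and limma-voom called 0. For ethanol 1 had (6.06% of all genes), and both tools called 0 as well. Isg15 was at 24.7, 20.1 and 22.2 CPM after PG 826 and at 22.6, 21.1 and 19.9 CPM in saline lungs, so the groups overlapped. Cxcl9 was nearly absent after PG 826, at 0.00, 0.0870 and 0.521 CPM, and at 2.71, 5.87 and 1.00 CPM after PG 1100. In saline lungs it was at 0.691, 1.46 and 2.63 CPM. The PG 826 lungs were thus all below saline, PG 1100 overlapped it, and neither dose was called against it. Between the PG doses 2.85% of all genes were called higher at 1100 and 2.71% lower. Cxcl9 was the only 1 of the 37 genes called there (3.91 ± 0.84, adjusted p = 0.00364, edgeR). Without animal 28 this call was lost, and 0 of the 37 were called.

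The effect of VEA 12.5 against ethanol was compared with that of PG 1100 against saline in the same model. No gene of the 37 was called for the difference (0.136% of all genes higher, 0.0543% lower), while 13 had an unadjusted p below 0.05 (7.89% of all genes), and DESeq2 called 1 and limma-voom 0. The difference was positive in 35 of 37, with a median of 0.81 beside -0.01 for all genes. It was 1.84 ± 0.52 for Ifi44 (95% interval 0.73 to 2.96, adjusted p = 0.196), 1.75 ± 0.69 for Irf7 (0.27 to 3.23, adjusted p = 0.471) and 1.72 ± 0.68 for Isg15 (0.26 to 3.19, adjusted p = 0.506). For Lgals3bp, called after both agents, it was 0.41 with an interval of -0.16 to 0.98. These intervals are wide, and the agents were given at different dose numbers.

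The genes upstream of this response were read from lists of other pathway genes. Of 21 interferon genes listed, 17 had no count in any library, among them Ifnb1, and none passed the filter. A count of 0 in a library allows a level of up to 3 counts, which is at most 0.365 CPM here. Interferon gamma (Ifng) had 30 counts in all, in 5 libraries: 5 and 7 in saline animals 8 and 10, 4 in ethanol animal 14, 3 in VEA 6.25 animal 63 and 11 in VEA 12.5 animal 68. Animals 66 and 70 had 0. Of 6 receptor genes 1 was higher after VEA 12.5 and 0 lower (5.48% and 4.23% of all genes). It was Ifngr2, a chain of the interferon gamma receptor, at 26.1, 31.5 and 31.9 CPM in ethanol lungs and at 44.9, 49.2 and 55.0 CPM after VEA 12.5 (0.73 ± 0.17, adjusted p = 0.00448). Ifngr2 was also called higher after VEA 3.12 and 6.25.

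The induction pathway senses nucleic acids and switches interferon genes on. Of its 12 tested genes, 3 were higher after VEA 12.5 and 0 lower (5.48% and 4.23% of all genes). Tmem173, which encodes the adaptor STING, was at 16.8, 16.6 and 10.5 CPM in ethanol lungs and at 25.7, 34.1 and 32.8 CPM after VEA 12.5 (1.08 ± 0.23, adjusted p = 0.00163). Irf8, a factor of the macrophage and dendritic cell lineages, rose by 0.65 ± 0.17 (adjusted p = 0.00783), and Irf5 was the third. Tlr7, a sensor of single-stranded RNA in endosomes, was called after PG 1100, at 10.2, 13.2 and 7.24 CPM against 3.85, 4.38 and 2.24 CPM in saline lungs (1.56 ± 0.36, adjusted p = 0.00391), and missed the threshold after VEA 12.5 (adjusted p = 0.113). Irf8 is also expressed in myeloid cells, some of whose markers rose, and the part of these cells was not tested.

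Of 7 negative regulators 3 were higher and 1 lower after VEA 12.5 (5.48% and 4.23% of all genes). Socs3, an inhibitor of cytokine receptors that IL-6 induces, was at 31.0, 28.5 and 30.5 CPM in ethanol lungs and at 63.3, 71.2 and 57.3 CPM after VEA 12.5 (1.09 ± 0.21, adjusted p = 0.000378). It was also called higher after PG 1100 (1.24 ± 0.21, adjusted p = 9.77e-05) and after both lower VEA doses, and animal 66 had a level like the others. Ptpn6, the phosphatase SHP-1, and Samhd1, which depletes nucleotides, rose by 0.73 ± 0.18 and 0.53 ± 0.13 (adjusted p = 0.00488 and 0.00656). Pias1 was the one called lower. Samhd1 stands in this list although it is also an antiviral effector.

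Of 37 further interferon-inducible genes tested, none of them among those above, 5 were higher after VEA 12.5 and 0 lower (5.48% and 4.23% of all genes). The median fold change of these 37 was 0.36. Ifi204, a DNA sensor of the HIN-200 family, was at 3.18, 6.26 and 8.85 CPM in ethanol lungs and at 8.10, 37.2 and 26.3 CPM after VEA 12.5 (1.96 ± 0.40, adjusted p = 0.00108), so animal 66 overlapped the controls. Oas1g, a close relative of Oas1a, was at 2.85, 0.324 and 1.40 CPM in ethanol lungs and at 5.63, 13.8 and 9.42 CPM after VEA 12.5 (2.65 ± 0.57, adjusted p = 0.0018). Psmb8, a subunit of the immunoproteasome, was at 88.2, 85.0 and 86.5 CPM in ethanol lungs and at 118, 147 and 130 CPM after VEA 12.5 (0.61 ± 0.13, adjusted p = 0.0019). Rtp4 and Eif2ak2, the kinase PKR, were the other 2. Again animal 68 was the highest and animal 66 the lowest in each of the 3 genes given here.

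The count of 16 genes after VEA 12.5 depended on single libraries. It was 12, 12 and 10 without ethanol animal 12, 13 or 14, and 22, 8 and 12 without VEA 12.5 animal 66, 68 or 70. None of the 37 was called lower in any of these 6 settings. Of all genes, 4.08%, 4.04% and 4.29% were called higher without ethanol animal 12, 13 or 14. Without VEA 12.5 animal 66, 68 or 70 the share was 4.54%, 4.05% and 3.80%, against 5.48% with all animals. Zbp1, Oas1a, Ly6e, Lgals3bp and Tap1 were called in each of 13 alternative settings, and Irf7, Isg15 and Ifi44 in each of the 6 that left out 1 of these animals. Without animal 68 the calls of Irf9, Ifit1, Oas3, Oasl2, Bst2, Trim30a, Xaf1 and Cxcl9 were lost, at adjusted p of 0.0534 (Bst2) to 0.461 (Trim30a). Without animal 70 those of Ifit1, Oas3, Trim30a and Xaf1 were lost. Without ethanol animal 14 those of Irf9, Ifit1, Oas3, Trim30a, Xaf1 and Cxcl9 were lost, without animal 12 those of Irf9, Ifit1, Oas3, Oasl2, Trim30a and Xaf1, and without animal 13 those of Irf9, Ifit1, Trim30a, Xaf1 and Cxcl9. With only the VEA 12.5 and ethanol lungs in the model, the calls of Irf7, Isg15, Ifit1, Ifi44 and Trim30a were lost (adjusted p = 0.0939 to 0.203) and 11 calls were left.

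Some values are uncertain because genes share sequence or overlap. Oas1a and Oas1g, Ifit3, Trim30a, the Gbp genes, Iigp1 and Ifi27l2a belong to families of close copies between which reads may have been split. Irf9 overlaps Rnf31 and Igtp overlaps Irgm2 on the same strand. Irf7, Irf1, Tap1, Cxcl10 and Dhx58 overlap Phrf1, Gm17334, Psmb9, Art3 and Dhx58os on the opposite strand, and since the strand setting of the counting is not given in the sources used here, reads of these pairs cannot be told apart.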

How the data were processed

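RNA of 21 lungs was sequenced as Lexogen QuantSeq 3′ libraries from 500 ng of total RNA, per the labels. The files deposited by the authors hold raw read counts per gene symbol, 1 file per library, with Bowtie2, bedtools and mm10 named in the submitters' processing notes without versions. The annotation and strand setting are not given in the sources used here. Each file has 23282 rows, and rows of 1 symbol were summed, giving 23238 symbols.

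In R 4.3.3, edgeR 4.0.16 was used with filterByExpr, TMM scaling and 1 robust quasi-likelihood fit of the 7 group means to all 21 libraries (14 residual degrees of freedom), from which 9 comparisons were tested. Adjusted p-values (Benjamini-Hochberg) run over 14727 genes in each comparison, with a threshold of 0.05. The SE is the size of the log2 fold change divided by the root of its F value. Levels are CPM, and log2 CPM has a prior count of 2. The script was tested on simulated data. The libraries of a group carry 3 different numbers in the labels, read here as separate mice.

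The 37 genes and the pathway and marker lists were chosen with earlier results of these data known. Within each role, values per animal are given for up to 4 genes called in a control comparison, those of the smallest adjusted p first, or for the 1 of the smallest p where none was called, and up to 3 called genes are named per pathway list. Where a single value decided a statement, other genes are named too. Marker symbols not in the files (Ly6g, Siglec5, Trac, Igj) were not analysed here. A list of pathway genes is not reported here. Gene coordinates are from GENCODE M21 (GRCm38), and promoter sequences from RefSeq (GRCm38.p6). Alternatives were RLE scaling, DESeq2 1.42.0, limma-voom (limma 3.58.1), no count filter, no Rn45s and haemoglobin genes, no libraries with the fewest genes detected, only the groups compared, and each animal left out.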

Additional observations from a re-analysis of the deposited data

How the results depend on the processing

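The count of the 37 genes called after VEA 12.5 against ethanol was 16, and it was 16 with RLE scaling, 17 with DESeq2 (16 shared), 15 with limma-voom (13 shared), 16 without Rn45s and haemoglobin genes, 24 with no count filter, 11 without the 3 libraries in which the fewest genes were detected (saline 8, ethanol 13 and VEA 6.25 animal 65) and 11 with only the groups compared. Leaving out 1 animal at a time gave 8 to 22. With no count filter the count was 2 for PG 826 (0 as reported), 10 for PG 1100 (4), 3 for VEA 3.12 (0), 5 for VEA 6.25 (1), 8 for PG 1100 against PG 826 (1), 14 for VEA 12.5 against VEA 3.12 (0) and 7 for the VEA 12.5 effect minus the PG 1100 effect (0). The cause was not tested. Except where single animals were left out of VEA 12.5 against ethanol, the shares of all genes called in these settings are not given here. The counts of this section therefore cannot be read as particular to the 37 genes. DESeq2 gave 1 for VEA 3.12, 3 for PG 1100 against PG 826, 1 for VEA 12.5 against VEA 3.12 and 1 for the difference of effects, and limma-voom gave 2 for PG 1100 and 0 for PG 1100 against PG 826. With only the groups compared the count was 1 for PG 1100, 2 for VEA 3.12 and 4 for VEA 6.25. Without those 3 libraries it was 3 for PG 1100, 0 for VEA 6.25 and 2 for PG 1100 against PG 826. Leaving out 1 animal at a time gave 0 to 1 for PG 826, 0 to 4 for PG 1100, 0 to 1 for VEA 6.25, 0 to 6 for PG 1100 against PG 826, 0 to 7 for VEA 12.5 against VEA 3.12 and 0 to 1 for the difference of effects. Where 1 animal of a group of 3 was left out, the other 2 carried the group's mean. No fold change of a called gene changed sign in any setting run, and ethanol against saline gave 0 in each. No paired analysis was possible because the animal numbers in the labels do not repeat between groups. Groups of 3 are too small for the test of single samples within a group, and genes below 5 CPM carry more counting error.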
